A study of Rattus norvegicus with 8 samples.

Results

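The genes encoding the follicle-stimulating hormone receptor (Fshr) and the luteinising hormone receptor (Lhcgr) were examined in rat ovaries on 1-colour Agilent expression arrays. They were found as the non-control probes whose gene name equals Fshr or Lhcgr, which gave 2 genes of 26204 distinct gene names on the array. Each receptor had 1 probe, printed in 2 spots per array. The control animals, titled as an untreated reference, received vehicle (albumin phosphate buffer) under the skin, while the treated animals received 50 IU of pregnant mare serum gonadotropin (PMSG) in 0.2 ml of that buffer. All were female rats aged 26 days at the injection and 28 days when the ovary was collected, 48 h later. Each array took 500 ng of whole-ovary RNA labelled with Cy3. No strain or genotype is named in the labels, and nothing in them says whether an array holds RNA of a single animal. Each group had 4 arrays, so p-values measure the spread between these arrays, which may be technical in part.

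Both receptors belong to the glycoprotein hormone receptor family of G protein-coupled receptors and act mainly through the stimulatory G protein, adenylyl cyclase and cAMP. In the ovary FSH receptors sit on granulosa cells, whereas LH receptors sit on theca and interstitial cells, on granulosa cells of large follicles and on luteal cells. FSH drives follicle growth and, together with estrogen, induces LH receptors on granulosa cells before ovulation. PMSG carries FSH-like and LH-like activity and is widely used to stimulate follicles in immature rodents.

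The sequences behind the measurements and the start regions of both genes are shown so that probe position and promoter make-up can be read beside the values. The Lhcgr probe lies on chromosome 6 of the build rn4, on the minus strand at chr6:12614473-12614532, starts at base 1996 of the transcript named in the files and reads through without a stop codon in all 3 frames. The Fshr probe lies at chr6:12925958-12926017, also on the minus strand, and starts at base 2240 of its transcript; each of its 3 reading frames holds a stop codon, so it is not wholly coding and is not printed. Both probes are 60 bases long with 41.7% G and C, and 0 other probes on the array share a run of 20 bases with either. The upstream regions are the 250 bases before the gene start in RefSeq (GRCr8), at chr6:10952079-10952328 for Fshr and chr6:11415165-11415414 for Lhcgr, both on the plus strand of that build. Capitals mark matches, searched on both strands, to CACGTG in Fshr, and to GGGCGG or the half-site AGGTCA in Lhcgr.
Lhcgr probe: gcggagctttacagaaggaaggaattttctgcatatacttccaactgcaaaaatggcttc
Fshr upstream region: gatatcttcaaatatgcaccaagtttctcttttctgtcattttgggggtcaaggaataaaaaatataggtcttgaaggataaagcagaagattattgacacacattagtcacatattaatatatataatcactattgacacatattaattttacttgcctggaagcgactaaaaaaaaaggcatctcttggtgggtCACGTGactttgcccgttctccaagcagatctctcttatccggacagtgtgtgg
Lhcgr upstream region: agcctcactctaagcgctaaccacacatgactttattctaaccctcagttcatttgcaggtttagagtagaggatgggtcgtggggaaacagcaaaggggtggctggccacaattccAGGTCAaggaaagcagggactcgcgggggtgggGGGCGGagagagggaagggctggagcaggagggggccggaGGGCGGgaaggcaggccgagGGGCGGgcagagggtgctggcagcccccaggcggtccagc

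The upstream regions differ in composition. That of Fshr is poor in G and C (36.8%, with 8.03% of 33469 RefSeq upstream regions lower), and that of Lhcgr is rich in them (63.2%, with 81.3% lower), against a median of 51.2%. The Fshr region holds 1 match to the E-box CACGTG, the motif of upstream stimulatory factors, 54 bases before the start, and 5.59% of all regions hold at least 1. In the Lhcgr region there are 3 matches to the GC box GGGCGG of SP1-type factors, 100, 60 and 40 bases before the start; 30.5% of regions hold at least 1 and 7.41% at least 3. It also holds 1 match to the nuclear receptor half-site AGGTCA, 133 bases before the start, which 14.1% of regions hold. Neither region holds CAAGGTCA, the extended half-site of NR5A receptors (1.33% of regions), or the cAMP response element TGACGTCA (1.59%). A match describes these letters only and was not tested as a binding site.

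All 8 arrays shared a scan date, and no spot was saturated. The 75th percentile of the signal, to which every value is scaled, ran from 769 to 1103. All 9 oocyte markers and 8 of 9 granulosa cell markers were well above background on every array; the exception was the probe for Cyp19a1 (aromatase), which no array measured above background. The arrays are called by their titles, because Lhcgr and the steroid synthesis genes Star (-2.75 on the log2 scale) and Cyp11a1 (-3.36) were lower in arrays labelled PMSG, opposite to the direction generally known for this hormone. Star and Cyp11a1 were picked with their values seen. Cyp17a1 and Hsd17b1, also steroid synthesis genes, did not pass, at -0.22 and -0.23 (limma adjusted p = 0.483 and 0.519). Whether the titles match the animals was not tested, and every direction below depends on them.

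Lhcgr was lower in arrays labelled PMSG. Its processed signal was 409, 397, 265 and 528 on control arrays 1 to 4 and 116, 94.8, 101 and 66.4 on PMSG arrays 1 to 4. The highest value labelled PMSG thus stayed below the lowest value labelled control. On the log2 scale relative to the array's 75th percentile, the level was -1.44 ± 0.36 (SD, n = 4) in control and -3.37 ± 0.49 (SD, n = 4) in PMSG. The difference of the means, PMSG minus control, was -1.93 with a standard error of 0.27 and a 95% interval of -2.55 to -1.31 (limma adjusted p = 0.00114 over 25303 probes), which is a 3.82-fold higher level in control (interval 2.49 to 5.87). It was below the difference of 98.9% of tested probes. Of the 2 receptors 1 was called, where 34.2% of all tested probes were called and 16.6% were called lower. Values did not overlap between the labels in 36.6% of probes.

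Fshr did not pass the threshold. Its processed signal was 802, 1017, 356 and 1309 on control arrays 1 to 4 and 1218, 991, 703 and 794 on PMSG arrays 1 to 4. The groups overlapped widely. The lowest and the highest of the 8 processed signals both came from arrays labelled control. After scaling, the highest value was 0.31 on PMSG array 1, against 0.25 on control array 4. On the scaled log2 axis the level was -0.42 ± 0.76 (SD, n = 4) in control and -0.08 ± 0.31 (SD, n = 4) in PMSG, so PMSG minus control was 0.34 with a standard error of 0.36 (limma adjusted p = 0.480). The 95% interval, -0.49 to 1.17, spans from 0.713-fold to 2.25-fold of the control level, so these arrays cannot tell a lower from a higher Fshr level. The difference turned to -0.02 (limma adjusted p = 0.956) without control array 3, so that 1 array set its sign.

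**Figure D1:**
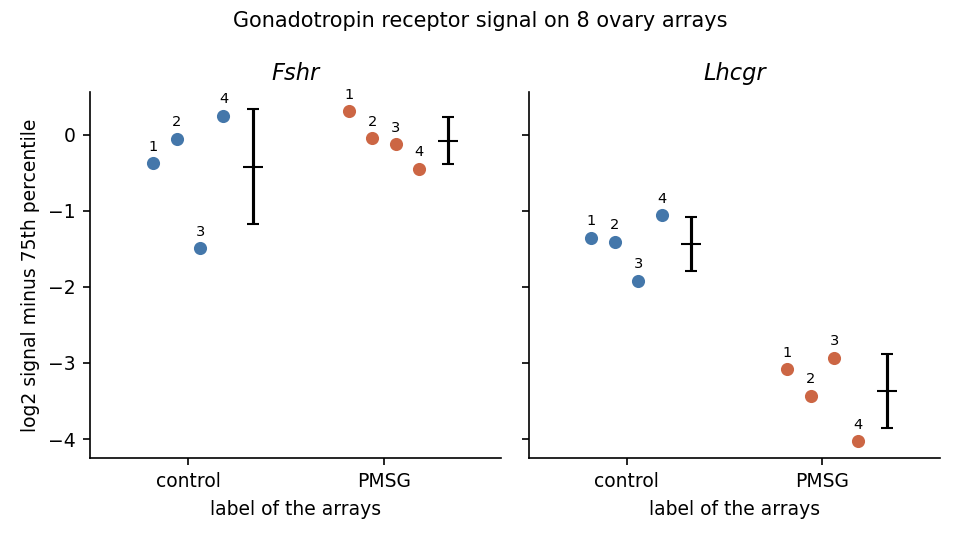
Log2 signal minus the array's 75th percentile (vertical axis) of the Fshr and the Lhcgr probe on the 4 arrays labelled control and the 4 labelled PMSG. Points are arrays with their replicate number, and bars are the mean ± SD; Lhcgr values do not overlap between the labels, while Fshr values do, with control array 3 at -1.49.

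The receptors changed unequally. The Lhcgr value minus the Fshr value of the same array, in which any scaling of the array cancels, was -0.98, -1.36, -0.43 and -1.31 on control arrays 1 to 4. On PMSG arrays 1 to 4 it was -3.40, -3.38, -2.80 and -3.58. All 4 values labelled PMSG lay below all 4 labelled control. Lhcgr alone also separated the labels, as did 36.6% of single tested probes in either direction. The share for differences between 2 probes was not computed. The mean shift was -2.27 on the log2 scale, or 4.84-fold, with an exact two-sided permutation p of 0.0286, which is the smallest that 4 arrays against 4 can give. Slide rows were inferred from a digit in the scanner file names and are not stated in the labels. Within these rows, with 2 arrays per label in each, the shift was -1.76 in row 1 and -2.79 in row 2. Lhcgr itself differed by -1.95 and -1.92 there and Fshr by -0.19 and 0.87. With these few arrays Lhcgr kept its call in row 1 (limma adjusted p = 0.0264) and lost it in row 2 (limma adjusted p = 0.112).

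**Figure D2:**
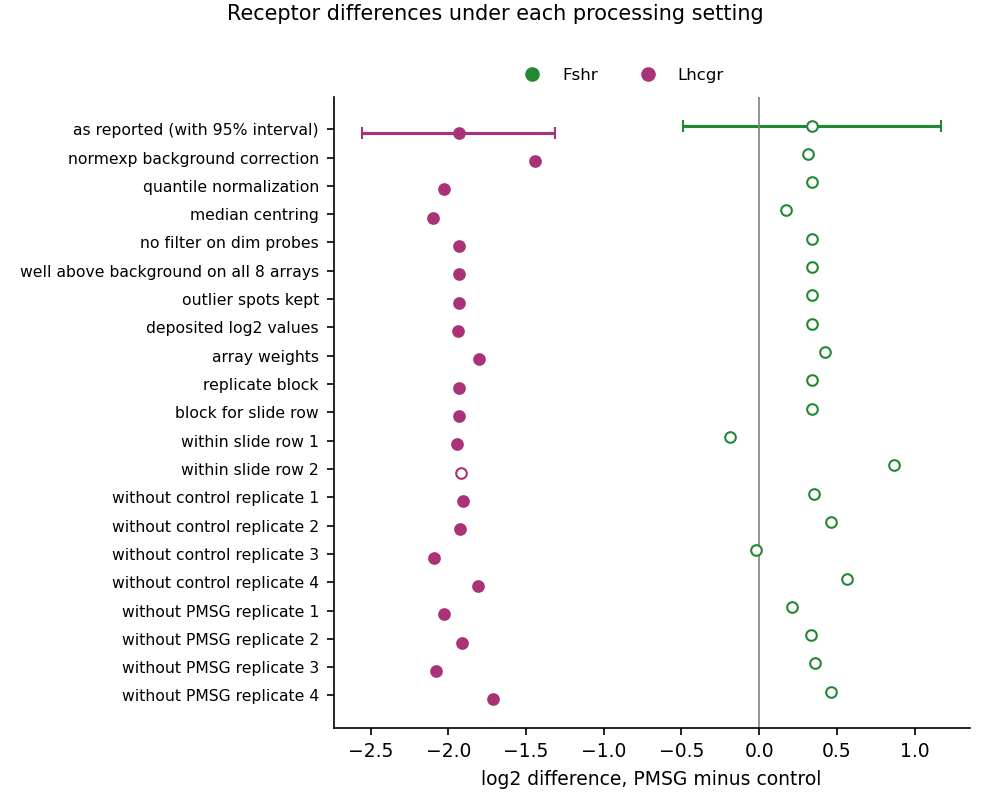
Log2 difference between arrays labelled PMSG and control (horizontal axis) of Fshr and Lhcgr under each processing setting (rows), with the 95% interval of the reported value. Filled points had a limma adjusted p under 0.05; Lhcgr lies between -2.10 and -1.45 throughout, while Fshr crosses 0 within slide row 1 and without control array 3.

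Repeat spots lay close together. The 2 spots of a probe differed by at most 1.03-fold for Fshr and 1.18-fold for Lhcgr on any array, and the local background was between 19 and 21.5. The dimmest receptor value, 66.4 for Lhcgr on PMSG array 4, was still well above background in both spots. Between arrays labelled control, Fshr ranged over 3.34-fold, and its SD was larger than that of 95.9% of tested probes; the median SD was 0.16. Between arrays labelled PMSG it ranged over 1.69-fold. Lhcgr ranged over 1.81-fold in control and 2.14-fold in PMSG.

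Both receptors had their lowest control value on array 3 and their highest on array 4. In PMSG both were lowest on array 4, the array that was lowest of its label in 47.3% of tested probes. Control array 3 was the lowest of its label for 22.2% of tested probes, but for 8 of 12 FSH target genes and 5 of 9 granulosa markers (lists that share genes). Hsd17b1, an estrogen-producing enzyme of granulosa cells, stood at 4.78 there against 5.50 to 5.93 on the other control arrays. Inhba, the inhibin beta A subunit, stood at 3.398 against 4.23 to 4.92. Array 3 was also the highest of its label for 6 of 6 adipocyte, 6 of 6 fibroblast and smooth muscle and 5 of 5 red blood cell markers, where 29.6% of all probes were. Its summed adipocyte marker level, relative to the 75th percentile, was 47.8 and the lowest of the control arrays was 6.32. For adipocyte markers PMSG array 3 had a sum of 53.8, and for fibroblast and smooth muscle markers 133, against 127 on control array 3. Its red blood cell marker sum was 221, the highest of its label, against 239 on control array 3. The Fshr level of PMSG array 3 was -0.13. PMSG array 4 had a higher fibroblast and smooth muscle sum, 138, and the lowest Fshr level of its label, -0.45. The adipocyte and red blood cell sums of PMSG array 4 were 19.7 and 151, the lowest of that label. The part of tissue make-up in the low Fshr value was not tested, and in whole ovaries fewer cells of a type and less RNA per cell cannot be told apart.

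The genes around the receptors were taken from 6 lists on ligands and related receptors, signal transduction, desensitisation, regulators, FSH targets and LH targets. Of their 99 genes on the array 90 were tested, and 48 of these (53.3%) were called, 13 higher and 35 lower in arrays labelled PMSG. Over all tested probes 34.2% were called, 17.6% higher and 16.6% lower, and the list counts below are to be read against these shares. The median log2 difference of the 90 was -0.24, against 0.11 over all tested probes. Lists overlap and were chosen with results of these data known, so the counts describe the neighbourhood of the receptors and are no test of it.

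Among the ligands and related receptors, 2 of 7 tested genes were called, both higher, a share below the 34.2% of all tested probes. Tshr, the thyrotropin receptor and the other glycoprotein hormone receptor, rose from -2.56 ± 0.43 to -1.12 ± 0.21 (SD, n = 4 each), a log2 difference of 1.44 (limma adjusted p = 0.00166), so that within the family Lhcgr and Tshr went opposite ways; another Tshr probe did not pass, at 0.65 (limma adjusted p = 0.0895). Lhb, the beta subunit of luteinising hormone, was higher by 1.22 (limma adjusted p = 4.99e-04). Of the 9 listed genes 1 was well above background on no array.

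Downstream of the receptors, signal transduction genes went both ways. Of 24 tested at their brightest probe, 2 were higher and 9 lower, with a median log2 difference of -0.05, while 17.6% of all tested probes were called higher and 16.6% lower. By that probe, the 3 called genes with the largest differences were adenylyl cyclases, the enzymes that form cAMP. Adcy8 was well above background on all 4 arrays labelled PMSG and on 0 of 4 labelled control, which makes it at least 2.04-fold higher in the former. With normexp background correction its log2 difference was 0.44 (limma adjusted p = 0.0155), which is less than that bound. Adcy2 was higher by 1.03 (limma adjusted p = 0.00284) and Adcy3 lower, at -0.85 (limma adjusted p = 0.00402); Adcy3 lost its call under 3 of 20 alternatives, among them normexp at -0.31 (limma adjusted p = 0.0541). For Gnas, which encodes the stimulatory G protein subunit both receptors use, the brightest probe was at 5.38 ± 0.16 in control and 5.41 ± 0.19 in PMSG (SD, n = 4 each), a difference of 0.03 (limma adjusted p = 0.891) whose sign changed under quantile normalization and median centring. A second Gnas probe was higher by 1.38 (limma adjusted p = 3.93e-04), so the probes of this gene disagree.

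Desensitisation genes switch active receptors off and carry them into the cell. Of 16 tested, 3 were higher, near the 17.6% over all tested probes, and 8 lower, against 16.6%. Grk5, a kinase that marks active receptors, fell from -1.72 ± 0.29 to -3.06 ± 0.20 (SD, n = 4 each), a log2 difference of -1.34 (limma adjusted p = 7.12e-04). Arrb2, one of the arrestins that bind such receptors, was higher by 0.84 (limma adjusted p = 6.47e-04). Arf6, a small GTPase that acts with arrestin at the LH receptor, was lower, at -0.91 (limma adjusted p = 0.0294), a call lost under 7 of 20 alternatives, where its adjusted p ran from 0.00208 to 0.223.

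**Figure D3:**
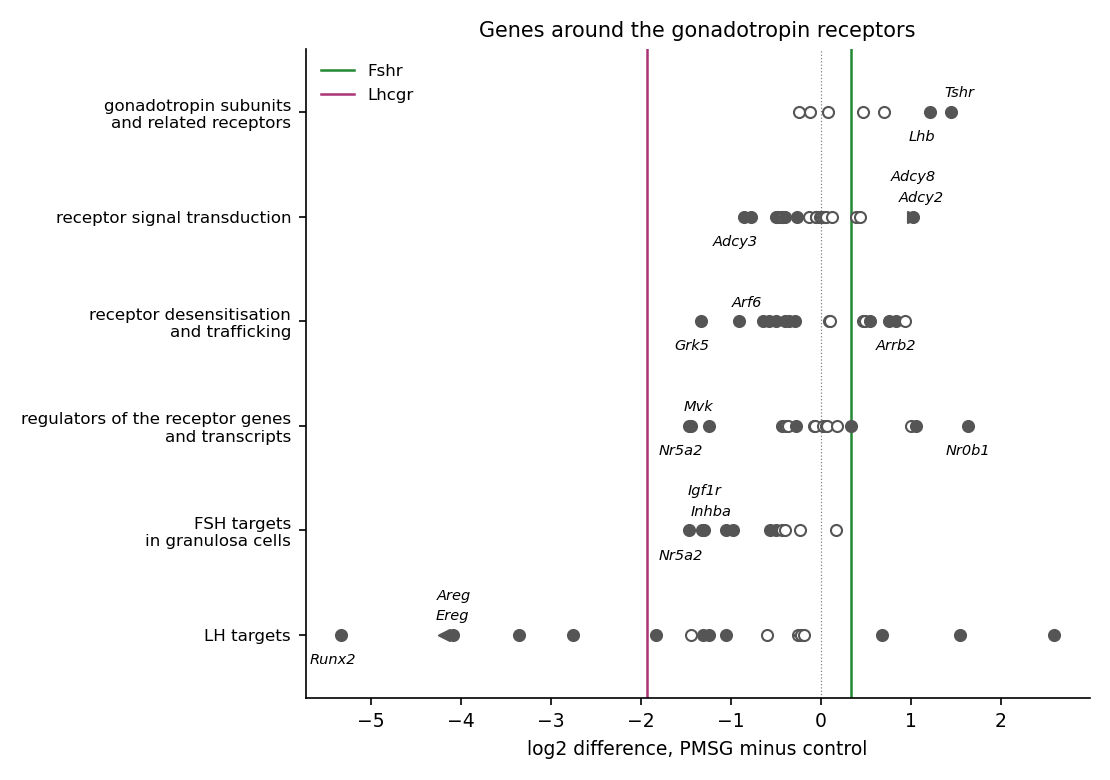
Log2 difference between arrays labelled PMSG and control (horizontal axis) of the tested genes in 6 lists around the receptors, with Fshr (0.34) and Lhcgr (-1.93) as vertical lines. Filled symbols had a limma adjusted p under 0.05, and the largest decreases are LH targets. Triangles are bounds for genes well above background on all arrays of 1 label but not on all of the other.

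Of 17 tested regulators of the receptor genes 3 were higher, near the 17.6% of all tested probes, and 5 lower, against 16.6%. Nr0b1 (DAX-1), which represses NR5A receptors, was higher by 1.64 (limma adjusted p = 3.63e-04). Nr5a2 (LRH-1), an NR5A receptor of granulosa and luteal cells, fell from 0.18 ± 0.31 to -1.28 ± 0.25 (SD, n = 4 each), a difference of -1.47 (limma adjusted p = 7.70e-04), and its second probe also fell, by 1.46. Mvk encodes mevalonate kinase, which is known to bind Lhcgr mRNA and to speed its decay. It was lower together with Lhcgr, at -1.45 (limma adjusted p = 7.26e-05). Nr5a1 (SF-1), at -0.36 (limma adjusted p = 0.260), and Tcf21, a repressor of gonadal genes, at -0.07 (limma adjusted p = 0.758), did not pass.

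Factors for the motifs shown above are named for that reason, with their values already seen. Usf1, which binds E-boxes such as CACGTG, differed by 0.06 (limma adjusted p = 0.700). Its partner Usf2 differed by -0.27 (limma adjusted p = 0.0353). Sp1, which acts at GC boxes, differed by 0.34 (limma adjusted p = 0.0400). Both calls were lost under most alternatives, 13 of 20 for Usf2 (adjusted p up to 0.481) and 12 of 20 for Sp1 (up to 0.486), and a second Sp1 probe differed by -0.09. Of the orphan receptors that bind AGGTCA half-sites, Nr2f1 was higher by 1.06 (limma adjusted p = 0.00883). Nr2f1 lost its call under 2 of 20 alternatives (adjusted p up to 0.276), among them quantile normalization at 0.82 (limma adjusted p = 0.0501). With normexp background correction it was higher by 0.67. Nr2f2 and Nr2f6 differed by -0.07 and 0.03 (limma adjusted p = 0.846 and 0.813). Against a shift of 0.11 over all probes, the differences of Usf1, Nr2f2 and Nr2f6 at these probes are too small to carry a direction. A second Nr2f6 probe differed by -0.33 (limma adjusted p = 0.0674) and did not pass.

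Genes known to respond to the receptors were called lower more often than higher in arrays labelled PMSG. Of 11 tested FSH targets, 7 were lower and the other 4 did not pass, with a median of -0.57, where 16.6% of all tested probes were lower. Igf1r, the insulin-like growth factor receptor through which granulosa cells amplify FSH signals, was lower by 1.30 on the log2 scale, from -0.24 ± 0.08 to -1.54 ± 0.08 (SD, n = 4 each; limma adjusted p = 7.84e-05). Inhba had a difference of -1.32 (limma adjusted p = 0.0237) that was not called under 6 of 20 alternatives (0.00476 to 0.193).

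Among the 6 lists, LH targets had the median farthest from 0, at -1.15, with 9 of 18 tested lower, against 16.6% of all tested probes, and 3 higher, near the 17.6% overall. Ereg, an EGF-like ligand released by granulosa cells after LH, was at least 18.3-fold lower in arrays labelled PMSG, where 0 of 4 arrays measured it well above background. Under normexp background correction the Ereg difference was -2.11, less than that bound, and that of Areg -2.73. Areg, a ligand of the same kind, fell from -0.66 ± 0.26 to -4.74 ± 1.01 (SD, n = 4 each), a difference of -4.08 (limma adjusted p = 4.49e-04). The transcription factor gene Runx2 differed by -5.33 (limma adjusted p = 1.69e-05) at its brightest probe, but by -0.36 and -0.66 at the other probes, neither of which passed.

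Cell marker lists had the following counts beside Lhcgr, where 17.6% of all tested probes were higher and 16.6% lower. Of 7 luteal markers 6 were lower and 1 higher. Their summed level ran from 150.3 to 172 in control and from 15.0 to 32.8 in PMSG, relative to the 75th percentile. Most of this sum came from Cyp11a1, Scarb1 and Star, with mean log2 levels of 6.59, 4.97 and 4.79 in control. Cyp11a1, Scarb1 and Star are also on the list of LH targets. The luteal marker Ptgfr, the prostaglandin F receptor, was well above background on all 4 arrays labelled control and on 0 of 4 labelled PMSG. That makes Ptgfr at least 3.14-fold lower in the latter. With normexp background correction its log2 difference was -0.53 (limma adjusted p = 0.00305), which is less than that bound. Of 7 theca and interstitial markers 3 were higher and 1 lower, with summed levels of 56.3 to 68.7 and 37.0 to 63.4. Granulosa markers, with which Fshr is usually read, had 2 higher and 3 lower of 8 tested and summed levels of 151 to 252 and 136 to 169. Oocyte markers were higher in 9 of 9, leukocyte markers in 4 of 6 and oviduct and surface epithelium markers in 5 of 7. Fibroblast and smooth muscle markers were higher in 2 of 6 and adipocyte markers in 1 of 6. Of 7 endothelial markers 1 was higher and 4 lower, and of 5 red blood cell markers 1 was lower. The part of these cell types in the receptor values was not tested.

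The receptor genes lie side by side, with 311 kb between their probes in rn4. Within 1000000 bases of them the array had 6 other probes, of which 4 were tested and 1 was called, against 34.2% over all tested probes. That probe belongs to Gtf2a1l, a germ cell form of a general transcription factor, and lies at chr6:12580983-12583720, next to the Lhcgr probe and on the opposite strand. Gtf2a1l rose from -4.51 ± 0.47 to -2.47 ± 0.44 (SD, n = 4 each), a shift of 2.04 with a standard error of 0.29 (limma adjusted p = 0.00115), about as far up as its neighbour Lhcgr went down; with normexp background correction it was 1.27. The 9 oocyte markers had a median difference of 1.97, and their part in the Gtf2a1l value was not tested. Ston1, which encodes an endocytosis adaptor, and Ppp1r21, a phosphatase 1 partner listed in the files as RGD1565310, differed by 0.03 (limma adjusted p = 0.949) and 0.16 (limma adjusted p = 0.277).

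**Figure D4:**
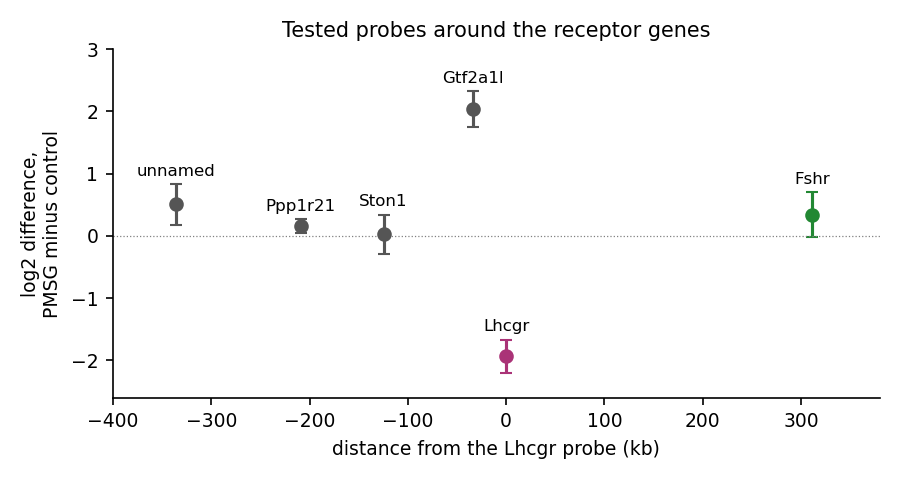
Log2 difference ± SE (vertical axis) of the 4 tested neighbouring probes and of Fshr and Lhcgr, by distance from the Lhcgr probe in kb (horizontal axis). Gtf2a1l at 2.04 and Lhcgr at -1.93 are adjacent, and the others lie between 0.03 and 0.51.

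Genes with the pattern most like each receptor were ranked by Pearson's r over the 8 arrays among 14081 named genes well above background on all of them; the arrays share the difference between labels, and r is a description. For Lhcgr the top genes were Nop58, a small nucleolar RNA-protein component (r = 0.996), Psme3, a proteasome activator (0.993), Gsta2, a glutathione transferase (0.991), Chst1, a sulfotransferase (0.989), and Slc25a13, a mitochondrial carrier (0.989). All 5 were lower in arrays labelled PMSG, from -0.31 for Nop58 to -3.89 for Gsta2, and r stayed between 0.926 and 0.981 once the label means were removed. For Fshr they were Tomm22, a mitochondrial import receptor (r = 0.956), Fam58b (0.956), the DNA repair gene Rad50 (0.947), Gja1 (0.945) and Ihh (0.924). Gja1 encodes the gap junction protein connexin 43 of granulosa cells, and Ihh a hedgehog ligand that granulosa cells send to theca cells. None of these 5 passed the limma threshold (adjusted p from 0.301 to 0.783), and all were lowest on control array 3. For both receptors, such shared features follow largely from picking the genes by r on these same arrays. How high r rises by chance among 14081 genes on 8 arrays was not tested. Nop58 lost its call under 9 of 20 alternatives (limma adjusted p from 0.0121 to 0.360). A second Ihh probe differed by -0.11, against 0.34 for the one that follows Fshr.

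**Figure D5:**
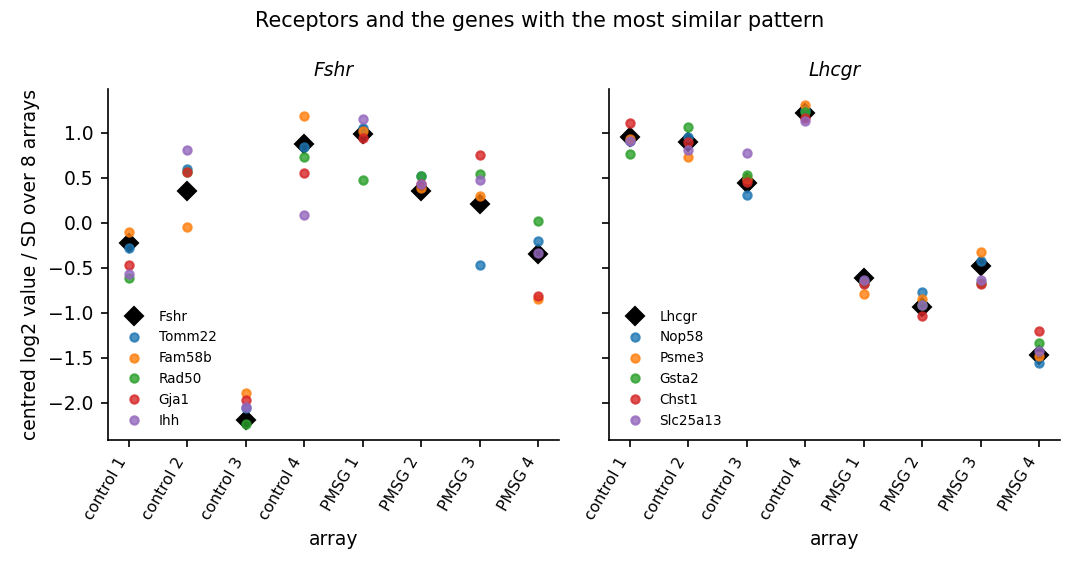
Log2 values centred and divided by the SD over the 8 arrays (vertical axis) for each receptor (black diamonds) and the 5 genes most like it (coloured points), by array. Fshr and its companions share the low value on control array 3, and Lhcgr and its companions separate the labels. The companions were chosen for this likeness.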

How the data were processed

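Ovary RNA of 8 samples was measured on Agilent arrays. Per the file headers, the deposited spot intensities come from Agilent Feature Extraction 11.5.1.1, which detrended them, and probe positions are on rn4. Per the labels' protocols, 500 ng of RNA was labelled with Cy3. The authors also deposited log2 values, which matched log2 signal minus each array's 75th percentile with each column closest to its own array (scale, centring and direction were inferred from this match). Columns not used numbered 0. Names came from the files; accessions were named through RefSeq (GRCr8).

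Control and outlier spots were left out, log2 processed signals were averaged per probe (30350 usable) and scaled to each array's 75th percentile. Probes well above background on at least 4 arrays (25303) were tested with limma 3.58.1 in R 4.3.3 (Benjamini-Hochberg, threshold 0.05), checked on simulated data. The number of arrays limits the precision. A gene with several probes is given by the brightest. Bounds set each dim array to its lowest well-above-background spot or the probe's own value. Named genes are both receptors, their neighbours, the top 3 called genes per list, Nr5a1, Gnas and Tcf21, and the 5 genes most like each receptor. Usf1, Usf2, Sp1, Nr2f1, Nr2f2, Nr2f6, Star, Cyp11a1, Hsd17b1 and Ptgfr were named beside this rule, with their values seen. Cyp17a1 was named for comparison and was not followed under the alternatives. Members and lists were chosen with earlier results of these data known. Sp3, Foxo1 and Hhip were not analysed here. Alternatives covered background correction, scaling, filter, outlier spots, deposited values, array weights, blocks and leaving out each array.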

Additional observations from a re-analysis of the deposited data

Results flagged for a closer look

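Among 90 groups of 4 values examined, 3 had an array far from the others of its label, where chance gives about 1 in 20 groups, here 4.5. Areg stood at -3.23 on PMSG array 2, against -5.33 to -5.11 on the other arrays of that label. Ppp1r21 (RGD1565310) stood at 1.101 on PMSG array 3, against 1.43 to 1.47. Rad50 stood at -4.70 on PMSG array 4, against -4.63 to -4.62. Neither receptor had such a value: the low Fshr signal on control array 3 fell short of this criterion.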

How the results depend on the processing

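Over 20 alternatives Lhcgr stayed lower in arrays labelled PMSG, from -2.10 to -1.45, and lost its call once, within slide row 2 (-1.92, limma adjusted p = 0.112). Fshr passed under none, and its sign turned within slide row 1 (-0.19); without 1 array it ran from -0.018 to 0.56. The shift of Lhcgr against Fshr was -1.76 within slide row 1 and -2.79 within row 2, and without 1 array it ran from -2.44 to -2.08; leaving out an array or splitting by row allows no exact p under 0.05. Called probes numbered 3351 within row 1 and 0 within row 2 (limma; 6015 at an unadjusted p under 0.05), called pathway genes 22 and 0 instead of 48, and called neighbours in row 2 numbered 0 instead of 1. With the replicate block, 7346 probes, 35 pathway genes and Lhcgr (limma adjusted p = 0.0128) were called. The correlations of same-numbered arrays' deviations were 0.0444, 0.0361, 0.183 and -0.0192. Differently numbered arrays were not compared in this way, so whether the numbers mark a shared batch was not tested. Array weights do not enter the exact test of the shift. Of 825 values for 42 other named genes, 714 kept direction and side of the threshold, 76 lost the call and 35 changed sign. Small differences changed sign with quantile normalization (Gnas -0.016, Ston1 -0.14, Rad50 -0.14), with median centring (Gnas -0.14, RGD1565310 -0.0039, Ston1 -0.14, Tomm22 -0.13, Fam58b -0.12, Rad50 -0.048, Gja1 -0.00025, Usf1 -0.11, Nr2f6 -0.138), with array weights (Tcf21 0.00069), within row 1 (Ston1 -0.094, Tomm22 -0.053, Fam58b -0.024, Rad50 -0.019) and within row 2 (Gnas -0.052, Tcf21 0.11, Nr2f2 0.346, Nr2f6 -0.077, Hsd17b1 0.194); the cause was not tested. Without 1 array, differences that crossed 0 ran from -0.038 to 0.11 (Gnas), -0.196 to 0.086 (Tcf21), -0.296 to 0.187 (Ston1), -0.012 to 0.061 (Tomm22), -0.0077 to 0.099 (Usf1), -0.29 to 0.089 (Nr2f2), -0.012 to 0.061 (Nr2f6) and -0.014 to 0.098 (Fam58b).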
